A study of Homo sapiens with 4 samples.

Results

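Selenoproteins carry selenocysteine, a residue that the ribosome inserts at a UGA codon with the help of a hairpin in the messenger RNA and a dedicated tRNA, elongation factor and binding protein. The 10 genes described here cover the plasma carrier SELENOP, the glutathione peroxidases GPX1 and GPX4, the small redox proteins SELENOW and SELENOH, and the proteins of the endoplasmic reticulum (ER) SELENOT, SELENOK, SELENOS, SELENOF and SELENOM. They were compared between U937-AE and U937-Mt cells and are 10 of the 19775 genes that the arrays name. The family was chosen by measured values, since SELENOP differs strongly between these samples, so the differences below are descriptions without a test. All 10 genes had a value, from 19 probe sets that name only the gene (symbols matched through the gene identifier where the older name stood on the array).

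U937 is a human myelomonocytic leukemia line. U937-AE cells are 1 clone, called the clone below, with HA-tagged AML1/ETO, the fusion protein of acute myeloid leukemia with the translocation t(8;21), behind the mouse metallothionein promoter, which zinc induces. U937-Mt cells, called the control, are a mixed population carrying the empty pSGMtNeo vector, and both lines received 100 µM ZnSO4 for 8 hours, so zinc exposure was shared. RNA of 3 extractions was pooled for each line and each pool was put on 2 Affymetrix arrays of the HG-U133 Plus 2.0 type. There is thus 1 replicate per line, the spread between the 2 copies covers hybridization error only, and the effect of AML1/ETO cannot be told apart from that of selecting a clone. In such bulk RNA, fewer cells that make a transcript and less of it per cell cannot be told apart either.

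Signals are the deposited GCOS intensities on a linear scale. The median signal of each array, 119.5 and 129.7 for U937-AE and 146.8 and 153.6 for U937-Mt, served as its floor, to which lower signals were raised before log2 was taken. A gene stands for its brightest probe set. It was called higher or lower where each of the 4 ratios between single arrays of the clone and the control exceeded 1.5-fold in that direction, and a fold against a pool with both arrays at the floor is a lower bound. Since the floors differ, a probe set under them on every array gets a log2 difference of -0.27. Of 12934 genes measured above the floor in at least 1 pool, 336 were called higher (2.6%) and 791 lower (6.12%), with a median log2 difference of -0.10. The RUNX1T1 probe set 216831_s_at, from the ETO part of the fusion, read 1361.5 and 1299 in the clone against 8.6 and 7.6 in the control. No other RUNX1T1 probe set was called: 216832_at had -0.42 with overlapping signals, and the rest were below the floor on all arrays. Hybridization spike-ins, which are added in equal amount to each sample, were brighter in the control by 1.27-fold. Of 10 myelomonocytic markers 8 had a value. Measured were 6 of these, PTPRC (CD45), CD4, LYZ, SPI1, MPO and CSF1R, while ITGAX and FCGR1A were below the floor. PTPRC was called higher (log2 difference 0.64), MPO (-3.16), SPI1 (-1.47) and LYZ (-1.03) lower. CSF1R, near the floor, had -0.78 and was not called. The median of the 6 was -0.91. Without overlap 1 was higher and 5 lower, beside 26.3% and 37.1% of all measured genes. Array pairs correlated with r = 0.935 in U937-AE and 0.919 in U937-Mt, and with r = 0.910 to 0.916 across the lines. The copies of a pool differed by a median of 1.10-fold and 1.11-fold.

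The sequence upstream of the transcription start set SELENOP apart from the other members. RefSeq promoters (GRCh38.p14) were at hand for 9 of the 10 genes, with 12 starts in all, and SELENOP and SELENOT are printed because they are the genes with a probe set called higher. SELENOP lies on the minus strand with its upstream 250 bases at chr5:42811893-42812142, and SELENOT on the plus strand with those bases at chr3:150603071-150603320. Each run ends at the base before the start, and capitals mark matches of a motif in either orientation. In SELENOP these are, from 5′ to 3′, the reverse complement of the antioxidant response core TGACNNNGC, that of the forkhead motif TGTTTAC, and the TATA box TATAAA. In SELENOT the capitals mark the core TGCACNC of a metal response element, the site that zinc-activated MTF1 binds.
SELENOP: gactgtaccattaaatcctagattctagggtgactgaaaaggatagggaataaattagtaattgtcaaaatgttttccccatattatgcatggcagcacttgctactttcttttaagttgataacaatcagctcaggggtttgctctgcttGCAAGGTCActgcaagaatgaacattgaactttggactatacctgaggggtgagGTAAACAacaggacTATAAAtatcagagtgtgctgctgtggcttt
SELENOT: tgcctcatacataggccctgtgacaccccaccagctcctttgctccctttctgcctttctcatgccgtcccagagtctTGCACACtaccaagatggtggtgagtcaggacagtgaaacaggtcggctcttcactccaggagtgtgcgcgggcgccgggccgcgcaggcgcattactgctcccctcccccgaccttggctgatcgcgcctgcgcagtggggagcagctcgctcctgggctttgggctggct

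The SELENOP sequence is 39.6% G and C and holds 0 CpG dinucleotides. The other 11 upstream sequences are 60.8% to 80.4% G and C with 14 to 37 CpG, against a median of 58% and 11 CpG over 35116 promoters. The forkhead match of SELENOP lies at -45 to -39, the antioxidant match at -99 to -91 and the TATA box at -31 to -26, counted from the start. Promoters of the same length hold the forkhead motif in 2.979% of cases, the antioxidant core in 10.91% and the TATA box in 10.72%. A metal response core (TGCACNC or TGCGCNC, present in 24.83% of promoters) was found for SELENOT at -172, GPX1 at -128 and the third listed start of GPX4 at -109, and the antioxidant core also for SELENOK at -117. The AML1 motif (TGTGGT or TGCGGT, in 16.31% of promoters) was in none of the 12 sequences. The motifs were chosen after the sequences were seen, and a match is a run of letters, not a bound site.

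SELENOP, the secreted protein that carries selenium from the liver to other tissues, was the member with the largest difference. Its probe set 201427_s_at read 2988.1 and 2801.5 in the clone and 27.2 and 11.9 in the control. Both U937-AE arrays were thus far above their floors, both U937-Mt arrays below, and the pools did not overlap. SELENOP was at least 19.3-fold higher in the clone (range of the 4 array comparisons 18.2 to 20.4, log2 difference 4.27). The size of this bound is set by the floor. The copies differed by 1.07-fold in U937-AE. The other SELENOP probe sets did not carry this level. The signals of 229620_at were 41.1 and 45.4 in the clone and 11.5 and 9.2 in the control, and those of 231669_at were 31.6 and 16.2 against 10.2 and 12.3. Both lay below the floor on all arrays and could not be called, and signals at that level give no difference. The level of SELENOP therefore rests on 1 probe set, whose suffix _s_at marks probes that can match several transcripts, and without probe sets of that kind the gene has no value above the floor.

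**Figure D1:**
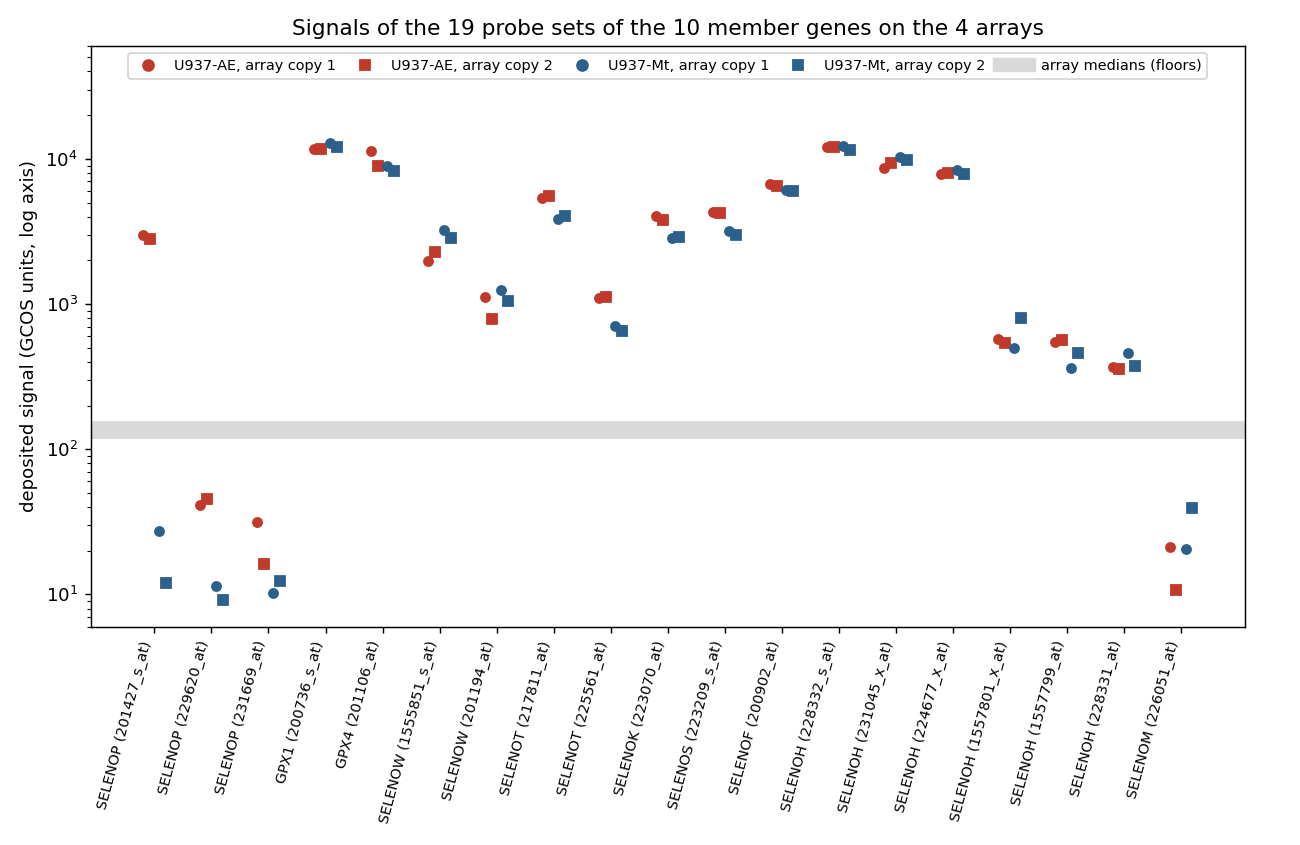
Deposited signal (log axis) of each of the 19 member probe sets on the 4 arrays, with U937-AE in red, U937-Mt in blue, circles for array copy 1, squares for copy 2 and a gray band for the array medians used as floors (119.5 to 153.6). Signals compare within a probe set only, and SELENOP 201427_s_at is the probe set whose U937-AE points lie above the band and whose U937-Mt points lie below it.

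Hepatocytes and tissue macrophages are known sources of SELENOP, and their markers were not higher in the clone. Of 10 hepatocyte markers 5 were measured and 0 were called, albumin (ALB) was below the floor on all arrays and SERPINA1 had a log2 difference of -0.43. Summed signals of the hepatocyte list were 1536.3 and 1527.7 in the clone and 2128.4 and 2121.8 in the control. Of 10 tissue macrophage markers 3 were measured and 0 were called, with C1QA, CD163, MRC1, LYVE1 and MARCO below the floor on all arrays. Their sums were 740.8 and 652.1 in the clone and 949 and 1161.7 in the control. With 5 of the 10 and 7 of the 10 markers not measured, these sums hold much signal at background level. Of the other cell type lists, 0 of 4 measured fibroblast, 0 of 3 lymphoid and 0 of 1 erythroid markers were called.

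Among regulators known to act on SELENOP in hepatocytes, FOXO1 and FOXO3 are the forkhead factors and PPARGC1A is their coactivator. FOXO1 read 187.1 and 252.5 in the clone and 141.9 and 139.4 in the control, both at the floor there, a log2 difference of 0.53 that was not called. The other FOXO1 probe sets, 202723_s_at and 228484_s_at, were below the floor on all arrays. FOXO3 had a log2 difference of -0.02 (-0.07 to 0.03) by its brightest probe set, while 204131_s_at gave -0.29 and 224889_at gave 0.25, each without overlap and not called. PPARGC1A did not reach the measured level in either pool. Of 5 listed regulators 3 had a value and 2 were measured, 0 of which were called. LRP8, the receptor that takes up SELENOP in brain and testis, read 2591.2 and 3131.8 in the clone and 1807 and 2043.7 in the control (log2 difference 0.57). LRP8 as a gene was not called, though its signals did not overlap, and of its other probe sets 205282_at was called higher (0.73) and 208433_s_at was not (0.18). LRP2, the kidney receptor, was near the floor and SELENBP1 below it, so 0 of 2 measured genes of selenium uptake and binding were called.

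The glutathione peroxidases, which reduce peroxides with glutathione, were bright in both pools and changed little. GPX1, the cytosolic enzyme, read 11696 and 11662.8 in the clone and 12776.5 and 12052.3 in the control. The U937-AE arrays were both slightly lower, by a log2 difference of -0.09 (-0.13 to -0.04), next to the median of all genes. GPX4, which reduces lipid hydroperoxides within membranes and so restrains ferroptosis, read 11346.5 and 8924.9 against 8883.4 and 8310.2. Its log2 difference was 0.23 (0.01 to 0.45), and the U937-AE copies alone were 1.27-fold apart, more than the 1.17-fold between the pools. Neither gene was called. Outside the members, GPX2 was dim, with 116 and 136.2 in the clone and 163.5 and 382 in the control (-0.97). GPX3 read 243.4 and 319.8 against 350.1 and 408.5 (-0.44). Both were lower without overlap and not called. The cysteine-containing relatives GPX5, GPX7 and GPX8 were below the floor on all arrays.

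SELENOW, a small cytosolic redox protein whose messenger is known to fall when selenium is scarce, had the lowest log2 difference of the measured members. Probe set 1555851_s_at read 1993.9 and 2271.6 in the clone and 3231.8 and 2868.9 in the control. Both U937-AE arrays were lower than both U937-Mt arrays, yet the folds ran from 1.26 to 1.62 and the gene was not called (log2 difference -0.52). The second probe set, 201194_at, read 1115.4 and 795.3 against 1241.7 and 1048.2, with overlapping pools (log2 difference -0.28). SELENOH, a nuclear redox protein, was level: its brightest probe set, 228332_s_at, read 12138 and 12028.1 in the clone and 12335.1 and 11469.2 in the control. That is a log2 difference of 0.02 with overlapping pools. Of its 5 other probe sets 0 were called, with log2 differences of -0.20 to -0.03 for 4 of them and 0.45 for 1557799_at, the only SELENOH probe set higher on both U937-AE arrays.

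SELENOT, SELENOK and SELENOS, which sit in the ER membrane, were each higher on both U937-AE arrays than on both U937-Mt arrays, by about the same amount. SELENOT, a thioredoxin-like oxidoreductase, read 5408.3 and 5528.9 in the clone and 3878.9 and 4052 in the control by its brightest probe set 217811_at, a 1.38-fold difference (1.33 to 1.43). Its second probe set 225561_at read 1106.5 and 1116.1 against 707.4 and 649.9, 1.64-fold higher (1.56 to 1.72), and was called. Thus 1 of its 2 probe sets passed 1.5-fold, a rule that 2.66% of the 23499 measured probe sets of 1 gene passed in this direction. SELENOK, a membrane protein of calcium signaling and palmitoylation in immune cells, read 4021.1 and 3771.1 in the clone and 2850.2 and 2916.5 in the control, 1.35-fold higher (1.29 to 1.41). SELENOS, which recruits the ATPase VCP to the complex that removes misfolded ER proteins, read 4310.7 and 4234.3 against 3182.9 and 3006.3, 1.38-fold higher (1.33 to 1.43). By these brightest probe sets the copies of a pool differed by at most 1.07-fold, less than the pools did. Over all measured genes, the 95th percentile of the difference between copies was 1.61-fold in U937-AE and 1.67-fold in U937-Mt. None of the 3 genes reached 1.5-fold. The log2 differences of 0.46, 0.43 and 0.47 stood at percentiles 91.9, 90.7 and 91.9 of all measured genes.

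Of the 2 ER proteins of the lumen, SELENOF was measured and SELENOM was not. SELENOF, a partner of the glycoprotein folding sensor UGGT1, read 6710.3 and 6539.4 in the clone and 6143.8 and 6019.7 in the control, 1.09-fold higher (1.06 to 1.11) without overlap. SELENOM was below the floor on all arrays, with signals of 21.1, 10.8, 20.7 and 39.2, and has no measured difference.

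**Figure D2:**
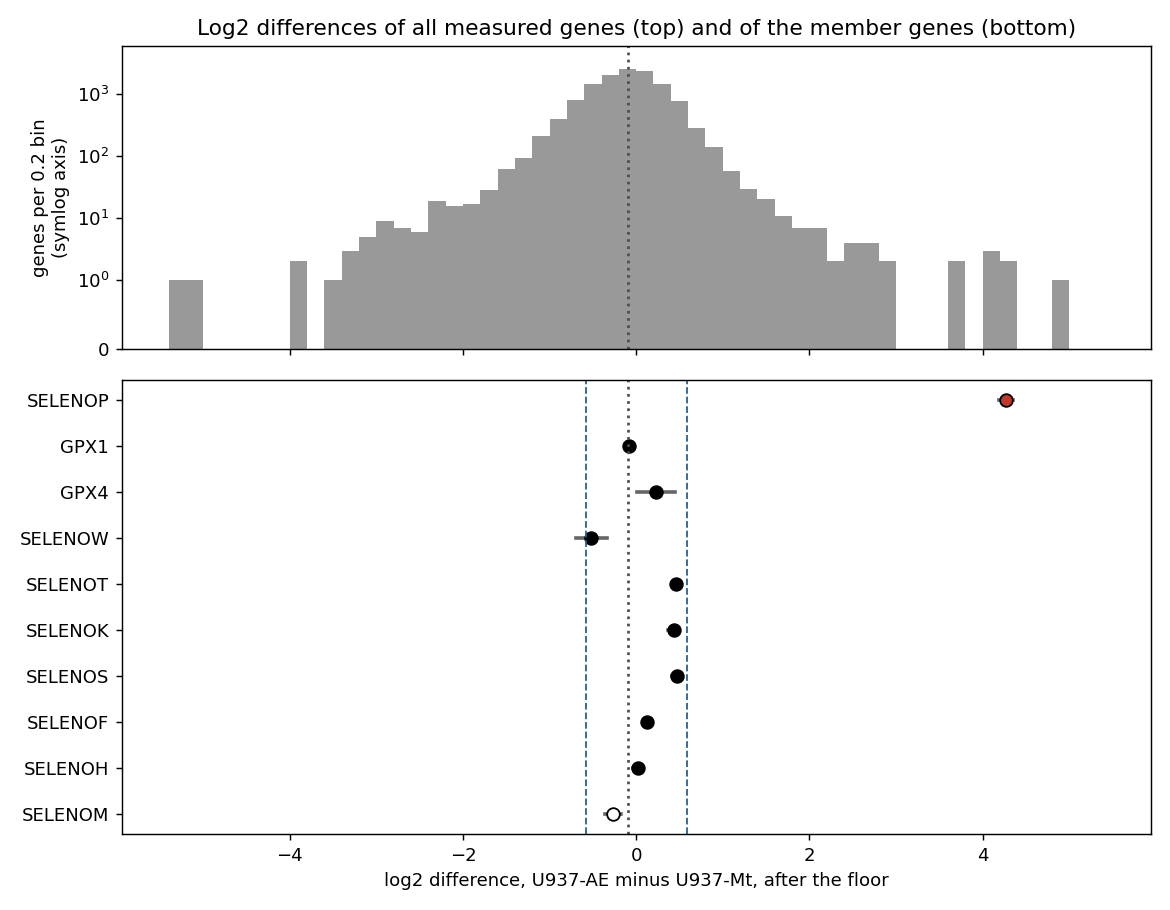
Top, number of measured genes in bins of 0.2 of the log2 difference U937-AE minus U937-Mt (symlog axis), and bottom, the 10 members with the mean (point) and the range over the 4 comparisons (bar), red where called higher and open where below the floor on all arrays. The dotted line is the median of all measured genes (-0.10) and the dashed lines mark 1.5-fold, which SELENOP at 4.27 alone passed in all comparisons.

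In total 1 of the 9 measured members was called higher and 0 lower, beside the 2.6% and 6.12% of all measured genes. Deposited signals did not overlap between the pools for 8 of the 9, with 6 higher in U937-AE and 2 lower, where 26.3% of all measured genes were higher and 37.1% lower without overlap. The members' median log2 difference was 0.23, and 0.18 over the 8 measured members without SELENOP, against -0.10 for all measured genes. The choice of members fixes the part of SELENOP in these values. Of the 15 remaining human selenoproteins 12 had a value and 11 were measured, 0 of which were called. Their median was -0.11, with 2 higher and 4 lower without overlap. Over all 25 selenoproteins, 20 were measured and SELENOP was the only gene called. TXNRD1, the cytosolic thioredoxin reductase, had a log2 difference of 0.02, MSRB1, a methionine sulfoxide reductase, of -0.11, SELENOO of -0.50 and GPX3, the plasma glutathione peroxidase, of -0.44. Uncalled genes that are named here and are no members, these included, were picked after their values were seen.

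By their brightest probe sets, the scaling of the arrays decided whether the ER membrane members passed 1.5-fold. The second SELENOT probe set, 225561_at, was called higher under all 4 scalings. Its log2 difference was 0.71 as deposited, 0.75 after quantile normalization, 0.98 with the same median and 1.06 with the spike-ins. With each array shifted to the same median signal, SELENOT and SELENOS were called higher beside SELENOP (log2 differences 0.73 and 0.74), which made 3 members, and with the spike-ins made equal SELENOK was called too (0.78), which made 4. These scalings also moved the median of all measured genes from -0.10 to 0.17 and 0.24, and the genes called higher from 336 to 911 and 1369, so SELENOT, for example, was 0.56 above that median in all 3 cases. After quantile normalization 1 member was called, and SELENOT, SELENOK and SELENOS stood at 0.36, 0.34 and 0.37. SELENOF was then 0.01 (-0.02 to 0.03), against 0.39 with the same median and 0.47 with the spike-ins. The direction of GPX1 turned from -0.09 to 0.18 and 0.26 under the first and second of these scalings, and SELENOH turned to -0.02 after quantile normalization. SELENOW stayed below 0 in all 4 by its brightest probe set (-0.60 to -0.17), while 201194_at turned to 0.07 with the spike-ins. The scalings add 0.27 and 0.34 to the log2 difference of each gene above the floor, so small negative values given here for other genes turn as well.

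**Figure D3:**
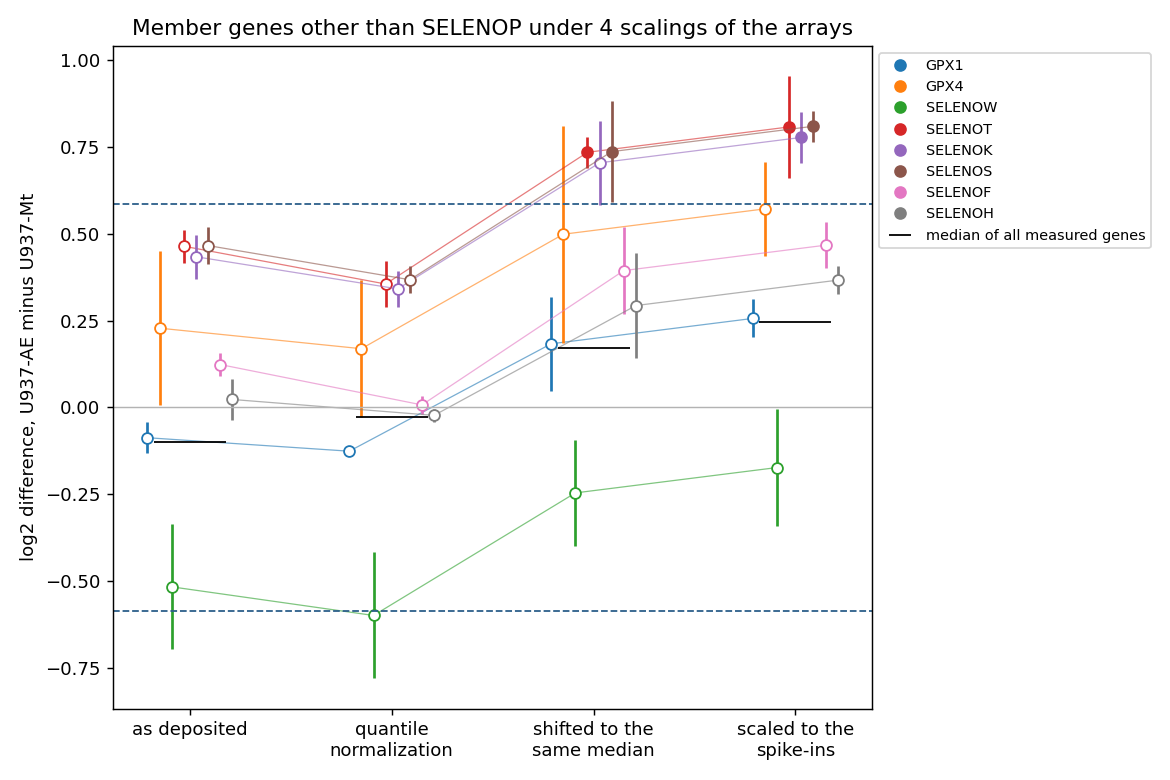
Log2 difference U937-AE minus U937-Mt of the 8 measured members other than SELENOP with the arrays as deposited, after quantile normalization, shifted to the same median and scaled to the spike-ins, as mean (circle, filled where called) and range over the 4 comparisons (bar). SELENOT, SELENOK and SELENOS move together, lying at 0.43 to 0.47 as deposited and at 0.78 to 0.81 with the spike-ins, across the dashed 1.5-fold line, and the black strokes show that the median of all measured genes moves with them, from -0.10 to 0.24.

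The 14 genes that make and insert selenocysteine were all measured, and 0 were called. Their median log2 difference was 0.13, and 9 were higher and 2 lower without overlap, where 26.3% and 37.1% of all measured genes were. ALKBH8, which modifies the anticodon of the selenocysteine tRNA, was the highest but also the least even, with 581.9 and 547.2 in the clone and 237.1 and 428.7 in the control (log2 difference 0.82, 0.35 to 1.30). SECISBP2, the protein that binds the hairpin in selenoprotein messengers, read 1977 and 2224.6 against 1524.1 and 1415.1 (0.51), and its relative SECISBP2L 1493.5 and 1352.9 against 883.7 and 903.8 (0.67, with 1 comparison just under 1.5-fold). EEFSEC, the selenocysteine elongation factor, had a log2 difference of -0.08, PSTK, a kinase of the tRNA, of -0.17, SEPHS2, which makes selenophosphate, of 0.05, and the ribosomal protein RPL30 of -0.42. ALKBH8, SECISBP2 and SECISBP2L were called under both scalings that raise U937-AE. Under these, 7.04% (same median) and 10.58% (spike-ins) of all measured genes were called higher.

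Partners of SELENOS and SELENOK in ER quality control held 1 called gene among 8 measured, 1 higher and 0 lower (median 0.20), beside 2.6% and 6.12% of all measured genes. DERL1, a derlin of the retrotranslocation channel, read 3329.7 and 3098.4 in the clone and 1867.5 and 1796.4 in the control, 1.75-fold higher (1.66 to 1.85). Its 3 other probe sets were not called and disagreed in direction, with log2 differences of 0.93, 0.20 and -0.73. DERL2 read 1016.9 and 1144.4 against 723.1 and 550 (0.77) and VCP 4732.1 and 4352.2 against 3387.6 and 3242.2 (0.45). HSPA5, the ER chaperone BiP, had a log2 difference of 0.32 and SEL1L, the scaffold of the ubiquitin ligase complex, of 0.09. ZDHHC6, the palmitoyl transferase that works with SELENOK, had -0.06 and DERL3 -0.58. UGGT1 had -0.07 by its brightest probe set 231968_at. Its probe sets 218257_s_at (-0.58) and 222568_at (-0.69) were lower without overlap and not called, and its remaining probe sets are not described here. Signals of 5 of the 8 were higher and of 1 lower in U937-AE without overlap, beside 26.3% and 37.1% of all measured genes.

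Few genes that work beside the glutathione peroxidases were called, as was the case for all measured genes. Of 22 measured genes of glutathione, thioredoxin and peroxide defence 0 were called higher and 1 lower (median -0.0031), beside 2.6% and 6.12% of all measured genes. Without overlap 7 were higher and 8 lower, beside 26.3% and 37.1% of all measured genes. The gene called lower was GCLM, the modifier subunit of the enzyme that starts glutathione synthesis, which read 1209.7 and 1306.5 in the clone and 2697.6 and 2164.2 in the control, 1.92-fold lower (1.66 to 2.23). All 3 GCLM probe sets were called lower, with log2 differences of -1.04 to -0.81, while the catalytic subunit GCLC had 0.19. MGST1, a microsomal glutathione transferase, was not called by its brightest probe set (log2 difference -0.67), but 1565162_s_at (-0.72) and 231736_x_at (-0.78) were called lower. TXN, thioredoxin, had 0.23 by its brightest probe set, and 216609_at (0.82) was called higher. PRDX1, a peroxiredoxin, had 0.51 and SOD2, the mitochondrial superoxide dismutase, 0.56, both without overlap and neither called. CAT, catalase, was lower without overlap by 201432_at (-0.38) and 211922_s_at (-0.48), neither called, and its probe set 215573_at was below the floor on all arrays. With the arrays shifted to the same median or scaled to the spike-ins GCLM had -0.67 and -0.60 and was not called. Beside 2.6% and 6.12% of all measured genes, 1 of 6 measured genes of lipid peroxidation and ferroptosis was called higher and 0 lower. This was GCH1, which starts the synthesis of the antioxidant tetrahydrobiopterin, with 3737.6 and 4048.9 in the clone and 2004.7 and 2199.4 in the control, 1.85-fold higher (1.70 to 2.02). ACSL4, which loads polyunsaturated fatty acids into lipids, read 3198.9 and 3181.9 against 2205.1 and 1738.2 (0.70) and was not called.

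The genes whose pattern over the 4 arrays was nearest to that of SELENOP were AKR1C3, SPARC, DYNC1I1, TYRP1 and AKR1C2. Likeness was the Euclidean distance between floored log2 signals, each gene centred on its own mean, and came to 0.146 for AKR1C3, 0.149 for SPARC, 0.282 for DYNC1I1, 0.446 for TYRP1 and 0.603 for AKR1C2. AKR1C3, an aldo-keto reductase, read 6359.9 and 6704.8 in the clone and 354.9 and 348.2 in the control, so unlike SELENOP it was above the floor in both pools. SPARC, a secreted matrix protein, read 2831.7 and 2470.2 against 98.8 and 80.4, and TYRP1, an enzyme of melanosomes, 2173.7 and 3057.6 against 117.2 and 55.1. For SPARC, TYRP1 and SELENOP both U937-Mt arrays were at the floor, so the likeness there rests on the floor itself. With 4 arrays of 2 pools the measure ranks little more than the size of the difference.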

How the data were processed

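RNA pools of U937-AE and U937-Mt cells (3 extractions each) were each measured on 2 Affymetrix HG-U133 Plus 2.0 arrays, and the number of arrays limits the precision. The authors deposited 1 linear signal intensity per probe set and array, computed with GCOS (version not given in the sources used here). The labels name TRIzol before RNeasy columns and the paper RNeasy. Of 54675 probe sets 62 are controls, 41097 have 1 gene symbol (41043 updated through the gene identifier), 1801 several and 11777 are unnamed in the table used. There were 0 columns of other samples. Signals were floored at the 50th percentile of each array without controls, log2 was taken, and calls followed the rule given above. That rule compares each sample array with both reference arrays, as the methods do, and was run on simulated data. The simulated noise came from the U937-AE copies only, so false calls from scaling or clone differences were not tested. No test across cell lines was made. The members, gene lists and alternatives were chosen with earlier results of these data known. Named genes are all members, at most 6 called genes per list, and the 5 genes most like SELENOP, and other genes are said to be chosen by their values. Alternatives were other scalings, floors, thresholds, probe sets, limma, the methods' t-test and leaving out each array. GPX6, TXNRD3 and SELENOV were not analysed here. Promoters came from RefSeq (GRCh38.p14). Python 3.11.15, numpy 2.4.6, pandas 2.3.3, scipy 1.17.1, matplotlib 3.10.9, R 4.3.3 and limma 3.58.1 were used.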

Additional observations from a re-analysis of the deposited data

How the results depend on the processing

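SELENOP was called higher under 17 of 19 alternatives, with log2 differences from 1.24 (mean over its 3 probe sets, of which 2 are at the floor) to 7.33 (no floor). Without the probe sets marked _x_at or _s_at its value was -0.27, the difference between the floors, since its remaining probe sets were below them, and 0 members were called higher. After Benjamini-Hochberg adjustment the methods' t-test called 0 members and 0 of 12934 genes (3107 at an unadjusted p under 0.05), with SELENOP at 4.27, while limma called 513 higher and 1142 lower. These p-values cover the spread between array copies only. With the arrays shifted to the same median 3 members were called higher, and with the spike-ins made equal 4. Members called lower stayed at 0 throughout. Of 169 values of the other 9 members 140 moved by less than their SD, 24 by more and 5 passed the call rule, and 0 turned into the opposite call. Other floors, thresholds, limma and the t-test cannot move the log2 difference of a gene well above the floor. Many of the 140 were thus fixed beforehand and say nothing about stability. Leaving out each array gave 4.22 to 4.31 for SELENOP and 1 member called. In limma with a replicate block 1 member was called, with 570 genes higher and 1433 lower. SELENOP stood at 4.27 there and in the t-test by construction, since both use the same means. The labels number the arrays, but the copy differences of the lines correlated with r = 0.049, so the numbers pair nothing. Over all measured genes, higher and lower calls were 911 and 387 with the same median, 1369 and 290 with the spike-ins (70.2% and 82.5% of calls higher instead of 29.8%), 240 and 373 with a 75th percentile floor, 98 and 263 at 2-fold, 624 and 1763 by the mean, 131 and 385 by the methods' t-test, 186 and 580 over all probe sets, and 451 to 557 and 1137 to 1496 without each array. DERL1 was not called by the mean over its probe sets (0.30). Signals at or below the floor give no difference, which leaves SELENOM, GPX5, GPX7 and GPX8 without one.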
